A study of Homo sapiens with 12 samples.

Results

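Mitosis and spindle genes are described here in Caco-2, a cell line from a human colorectal adenocarcinoma whose cells can take on features of small-intestinal enterocytes. The group was taken by gene symbol from a list of 48 genes, of 54553 genes in the deposited tables. The list was chosen by function and not by a measured value, but with earlier results of these data known. It holds 8 mitotic kinases, 7 cyclins, CDC25 phosphatases and transcription factors of the G2 to M transition, 5 genes of anaphase control and 8 kinesin motors. It also holds 5 centromere and kinetochore genes, 3 subunits of the chromosomal passenger complex, 7 spindle-associated proteins, 3 cytokinesis genes and 2 genes of chromosome structure. All 48 passed the filter on low counts, and the least read member, SPC25, had at least 116 reads in every library.

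RNA was sequenced from 12 libraries in 4 groups of 3, all treated for 48 h. Rich medium was a minimal essential growth medium with 1 g/L glucose, 2 mM glutamine and 20% serum. Depleted medium was a different basal medium with 0.1 g/L glucose, 0.2 mM glutamine and 1% serum, so basal medium, glucose, glutamine and serum changed together and cannot be told apart. Cells in each medium were given vehicle or bafilomycin A1 at 100 nM, which blocks the proton pump (V-ATPase) that keeps lysosomes acidic. The 4 groups are called rich vehicle, rich bafilomycin A1, depleted vehicle and depleted bafilomycin A1. The labels do not say that replicates came from separate cultures, so the tests measure only the spread between these libraries, which may be technical. Caco-2 is a tumour line, and its cell cycle control need not match that of normal intestinal epithelium.

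A cell enters mitosis when cyclin B and CDK1 become active, after CDC25 phosphatases remove inhibitory phosphates from CDK1. Aurora and Polo-like kinases build the spindle with kinesin motors, kinetochores attach chromosomes to it, and the spindle checkpoint holds the anaphase-promoting complex in check until attachment is complete. Anaphase starts when CDC20 activates that complex, which marks cyclin B and securin for destruction. Most of these genes are transcribed in a wave late in the cell cycle, repressed in resting cells by the DREAM complex and activated in cycling cells by B-MYB (MYBL2) and FOXM1, so in bulk RNA they are widely used as a readout of proliferation.

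The libraries held 12969811 reads in rich vehicle replicate 1 and between 33859975 and 51649207 reads in the other 11. The shallow library had 17485 genes detected, against 22749 to 24432 elsewhere. Replicate 3 of rich bafilomycin A1 was closer to a depleted vehicle library (Spearman rho 0.990 across genes) than to its own group (highest rho 0.985). Rich vehicle replicates 2 and 3 were also nearer, by less than this, to a rich bafilomycin A1 library (0.979 and 0.978) than to each other (0.978). Of 12 intestinal epithelial markers, 10 reached 1 TPM (a level corrected for gene length and library size) in some library, while KRT20 and CDX1 stayed near 0. Their summed level, mostly the keratins KRT8 and KRT18, ranged from 5162 to 8255 TPM in rich vehicle, 3304 to 4786 in rich bafilomycin A1, 2881 to 3002 in depleted vehicle and 1555 to 2290 in depleted bafilomycin A1, groups that did not overlap. THY1 (fibroblasts), PTPRC (leukocytes) and KDR (endothelium) were at or near 0 TPM in every library. Other markers of the same lists were expressed in every library, with COL1A1 at 3.32 to 9.08 TPM, PDGFRA at 6.79 to 78.3, CD14 at 1.93 to 18.7, LYZ at 0.942 to 7.21 and PECAM1 at 0.322 to 4.99. The summed level of 8 fibroblast markers, mostly PDGFRA, ranged from 25.1 to 90.1 TPM in rich vehicle, 21.6 to 38.3 in rich bafilomycin A1, 15.6 to 23.8 in depleted vehicle and 11.0 to 25.3 in depleted bafilomycin A1. The summed level of 7 leukocyte markers ranged over the same groups from 10.9 to 26.3, 7.93 to 17.0, 5.09 to 7.78 and 2.90 to 6.38 TPM. The summed level of 4 endothelial markers ranged from 1.58 to 6.46, 1.32 to 2.06, 2.01 to 2.38 and 0.570 to 1.39 TPM. The part of these shifts in the results on mitosis genes was not tested.

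The mitosis and spindle genes took their largest share of reads in rich vehicle cells and their smallest in depleted bafilomycin A1 cells. Together they made up 0.700%, 0.535% and 0.560% of reads in the rich vehicle libraries and 0.376%, 0.379% and 0.298% in rich bafilomycin A1. They made up 0.282%, 0.287% and 0.259% in depleted vehicle and 0.231%, 0.199% and 0.165% in depleted bafilomycin A1. The libraries of the 4 groups did not overlap in this share. Group means were 0.598% ± 0.0890, 0.351% ± 0.0461, 0.276% ± 0.0150 and 0.198% ± 0.0333 (SD, n = 3 each).

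**Figure D1:**
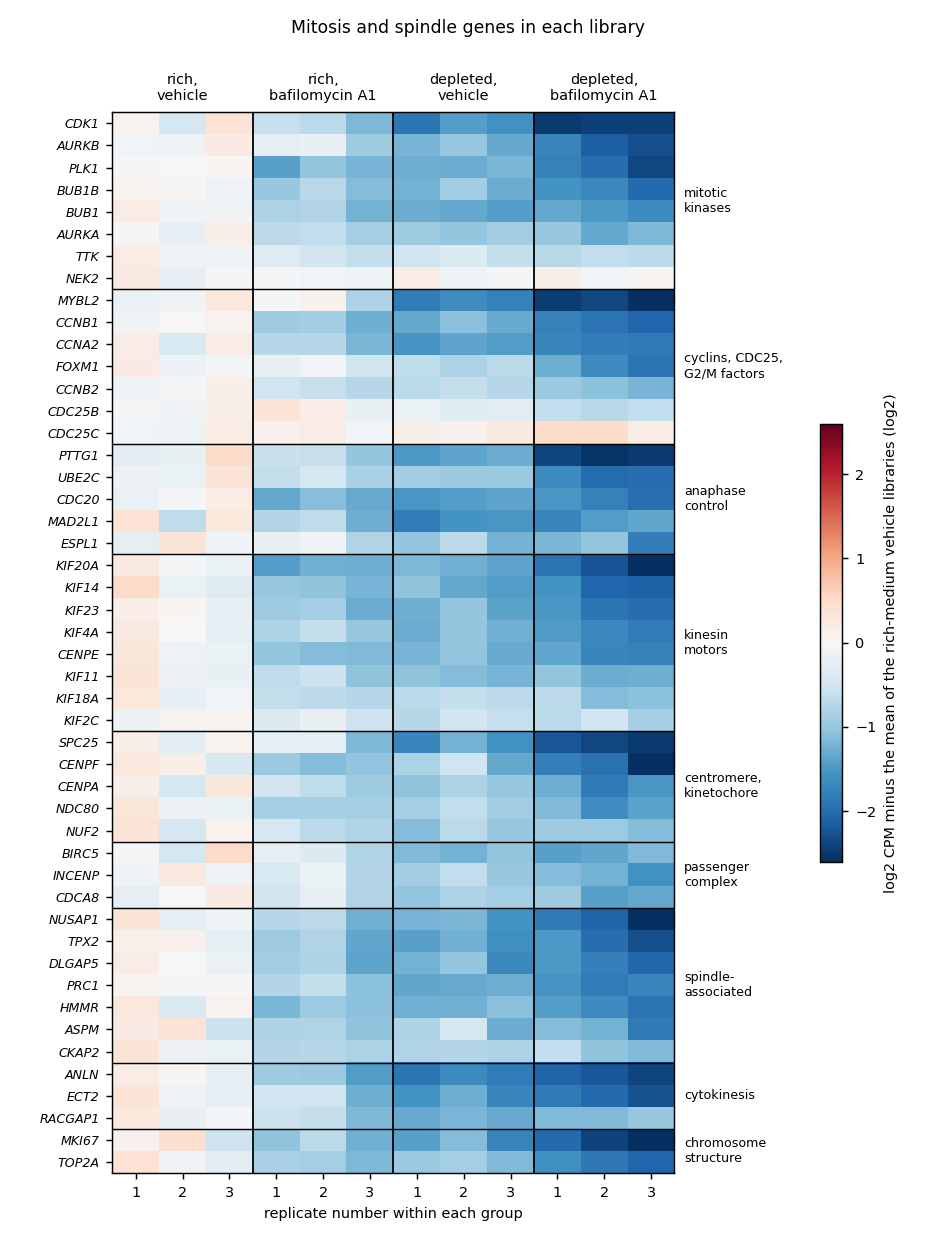
Heat map of the 48 genes (rows, by function) in the 12 libraries (columns, by group and replicate number); colour gives log2 CPM minus the mean of the rich vehicle libraries. Averaged over the genes, rich bafilomycin A1 replicates 1, 2 and 3 lay at -0.66, -0.61 and -0.98, while the depleted bafilomycin A1 libraries lay at -1.38, -1.58 and -1.74; NEK2 and CDC25C are the rows that stay pale.

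On the mean log2 CPM of the 48 genes (CPM are read counts scaled to a common library size with TMM factors), rich bafilomycin A1 lay at -0.75 relative to rich vehicle, depleted vehicle at -1.08 and depleted bafilomycin A1 at -1.57. The heat map of all libraries shows that replicate 3 of rich bafilomycin A1, at -0.98, lay next to the depleted vehicle libraries at -1.11, -0.98 and -1.16, apart from replicates 1 and 2 of its own group. In bulk RNA, fewer cells in mitosis and less mitotic RNA per cell cannot be told apart.

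Bafilomycin A1 in rich medium lowered 36 of the 48 genes and raised none, against 4.78% of all 18047 genes tested called lower and 6.15% called higher (edgeR's quasi-likelihood test, Benjamini-Hochberg adjusted p under 0.05, which is what called means throughout). The members' median log2 fold change was -0.81, against 0.02 over all genes. Kinesins, spindle-associated proteins and cytokinesis genes were nearly all lower (7 of 8, 7 of 7 and 3 of 3). KIF20A, a kinesin of the central spindle, had the largest difference at -1.34 ± 0.20 (log2 fold change ± SE, adjusted p = 0.00138), followed by CDC20 at -1.26 ± 0.15 and PLK1, Polo-like kinase, at -1.21 ± 0.16. None of the 3 passenger complex subunits was called by edgeR or by the DESeq2 test. All 3 had an unadjusted edgeR p under 0.05, against 4788 of all 18047 genes. Only 3 of 7 genes of the cyclin, CDC25 and transcription factor group were called (CCNA2, CCNB1 and CCNB2). Without rich bafilomycin A1 replicate 3 the count of lower members was 23, and without that library and the shallow one together it was 17, with a median of -0.63. Over all genes 862 of 18047 were called lower in the main fit. In these smaller fits 357 of 18683 and 357 of 18538 were.

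Depletion alone lowered 45 of the 48 genes and raised none, against a background of 15.4% called lower and 15.5% called higher. The median was -1.20, against 0.04 over all genes. All members of 7 of the 9 functional groups fell. The exceptions were NEK2, CDC25B and CDC25C, which were not called. ANLN, the cleavage furrow protein anillin, fell by 1.81 on the log2 scale (SE 0.17, adjusted p = 1.71e-05), and MYBL2 fell by 1.75 (SE 0.22, adjusted p = 6.96e-05). This comparison shares its rich vehicle libraries with the preceding one, so the counts are not independent of each other.

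In depleted medium, bafilomycin A1 lowered 17 of the 48 genes and raised none, against a background of 5.91% called lower and 5.5% called higher, with a median of -0.47 against -0.03 over all genes. CENPF, a kinetochore protein of late G2 and mitosis, had the largest difference (-1.22 ± 0.24, adjusted p = 0.00477), followed by PTTG1, which encodes securin (-1.13 ± 0.20, adjusted p = 0.00283), and MKI67, the proliferation marker Ki-67 (-1.04 ± 0.28, adjusted p = 0.0245). None of the cytokinesis or passenger complex genes was called by edgeR or by the DESeq2 test. At an unadjusted edgeR p under 0.05 were 2 of 3 and 1 of 3, against 4699 of all 18047 genes. With the replicate number as a block, 25 members were called lower, against 1582 of all 18047 genes called lower. INCENP, ANLN, ECT2, TPX2, ASPM, DLGAP5, KIF4A and KIF14 were among the 25. The depleted bafilomycin A1 libraries had shorter fragments, with a median gap between gene length and effective length of 178, 192 and 205 against 207 to 264 in the others, and the count with effective lengths in the model stayed within 1.5 times of 17. The count was 10, 7 and 11 without depleted vehicle replicates 1, 2 and 3, and 8 and 6 without depleted bafilomycin A1 replicates 2 and 3. Lower calls over all genes also fell, from 1066 of 18047 to 636, 572, 710, 552 and 468 in the same order.

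Depletion under bafilomycin A1 lowered 36 of the 48 genes and raised none, against 13.6% of all genes called lower and 10.5% called higher, with a median of -0.83 against 0.01. MYBL2 had the largest difference (-2.35 ± 0.22, adjusted p = 1.52e-05), followed by SPC25 (adjusted p = 0.00011) and PTTG1 (-1.81 ± 0.21). All 3 passenger complex subunits fell in this comparison, as they did under depletion alone. In each of the 4 comparisons above, and in that of depleted vehicle against rich bafilomycin A1 below, 0 members were higher at an unadjusted edgeR p under 0.05 and 0 by the DESeq2 test.

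With depletion and bafilomycin A1 together, 46 of the 48 genes were lower than in rich vehicle, against 21.6% of all genes called lower, and CDC25C was called higher, against 21.6% of all genes called higher. The median was -1.68, against 0.03 over all genes. PTTG1 was 5.97-fold lower, MYBL2 5.85-fold, MKI67 5.71-fold, SPC25 5.69-fold and CDK1 5.62-fold. At the other end of the called range stood CDC25B (1.60-fold lower) and TTK, a spindle checkpoint kinase (1.62-fold lower). In 46 of the 48 genes the 3 treated libraries lay below the 3 rich vehicle libraries, against 22.3% of all genes.

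**Figure D2:**
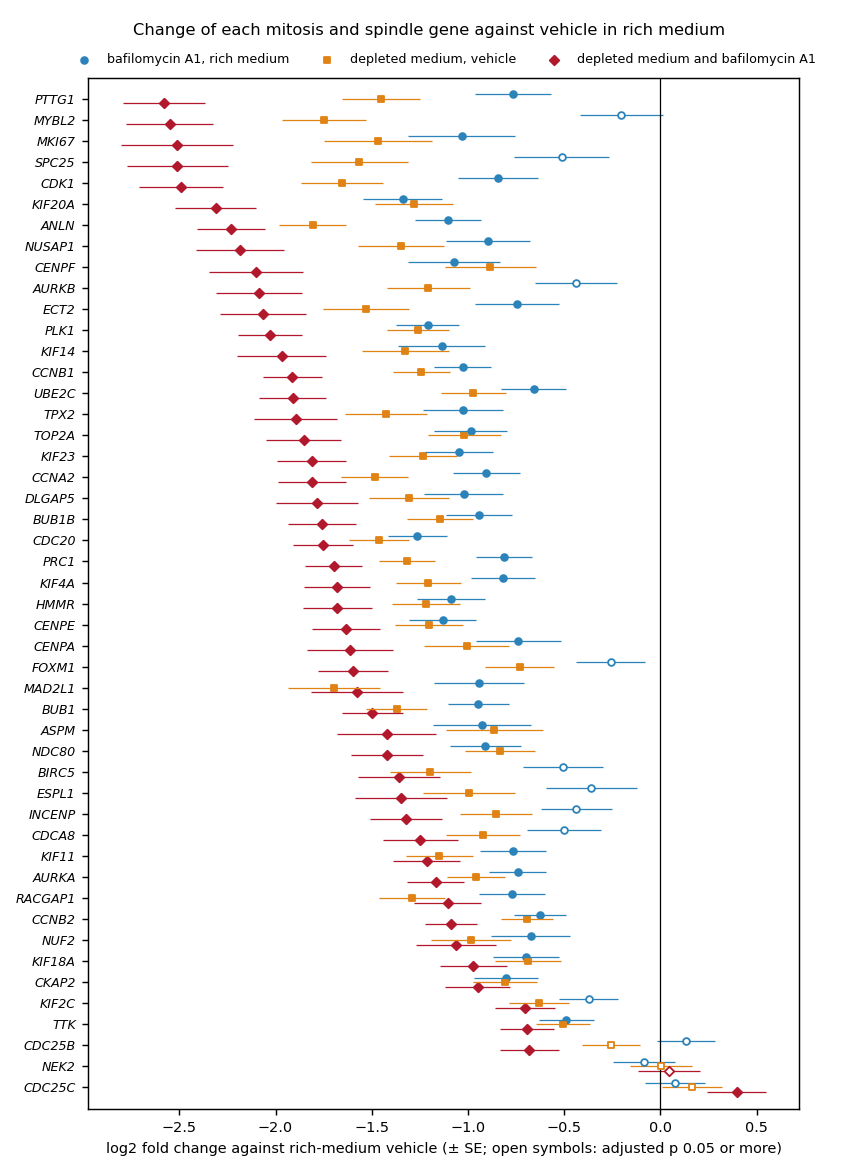
Log2 fold change (x axis, ± SE from the model) of each of the 48 genes (y axis) against rich vehicle for bafilomycin A1 in rich medium (circles), depleted medium (squares) and both (diamonds); open symbols have an adjusted p of 0.05 or more. The 3 comparisons share the rich vehicle libraries; the diamonds reach -2.58 for PTTG1, and CDC25C and NEK2 stay near 0 in the bottom rows.

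Promoters of the genes with the largest falls are shown because many genes of this wave carry the cell cycle genes homology region, a short element read by LIN54 in the DREAM and B-MYB complexes. Sequences are from RefSeq (GRCh38.p14), from 100 bases before to 20 after the annotated start, 5′ to 3′ on the gene's strand. Capitals mark TTTGAA or TTCGAA on either strand, so that TTCAAA is the element on the opposite strand. The first 5 were the members with the largest differences under both treatments whose window held the element. CDC25C was added after its values were seen, as a gene that did not fall and whose window held the element. NEK2 did not fall either, and its window held no such element. Where a gene had several annotated starts, the window with the element nearest before the start was printed.
MKI67 (chr10:128126404-128126523, minus strand): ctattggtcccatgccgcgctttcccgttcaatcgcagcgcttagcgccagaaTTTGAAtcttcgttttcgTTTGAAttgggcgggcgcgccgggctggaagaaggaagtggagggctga
SPC25 (chr2:168890411-168890530, minus strand): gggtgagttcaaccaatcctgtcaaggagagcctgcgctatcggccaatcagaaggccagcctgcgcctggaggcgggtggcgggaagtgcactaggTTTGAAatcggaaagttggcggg
CDK1 (chr10:60778378-60778497, plus strand): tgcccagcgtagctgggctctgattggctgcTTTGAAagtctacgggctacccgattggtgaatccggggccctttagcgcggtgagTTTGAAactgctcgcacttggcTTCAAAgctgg
ANLN (chr7:36389762-36389881, plus strand): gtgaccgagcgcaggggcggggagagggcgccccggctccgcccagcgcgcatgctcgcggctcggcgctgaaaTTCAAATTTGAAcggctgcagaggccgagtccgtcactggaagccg
NUSAP1 (chr15:41332781-41332900, plus strand): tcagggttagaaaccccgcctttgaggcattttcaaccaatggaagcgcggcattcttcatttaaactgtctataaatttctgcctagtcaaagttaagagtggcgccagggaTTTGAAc
CDC25C (chr5:138331785-138331904, minus strand): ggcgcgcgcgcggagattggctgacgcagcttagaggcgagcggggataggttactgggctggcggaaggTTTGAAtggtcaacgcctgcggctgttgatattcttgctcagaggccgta

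A promoter entry was found for 41 of the 48 genes, in 51 windows of 300 bases (250 before to 50 after the start). TTTGAA or TTCGAA, on either strand, was present for 31 of the 41 (75.6%), against 19.5% of all 27305 genes with an entry. In 27 it began within 50 bases of an annotated start, counted at the nearest where a gene had several. That count was not made over all genes. CCAAT, the box bound by NF-Y, was present for 33 of the 41 (80.5%) against 39.7% of all genes. TTTCCCGC or TTTGGCGC, forms of the E2F element, were present for 2 of the 41 (4.88%) against 2.75%. The letters of the homology region and of CCAAT overlapped in 2 windows. CDC25C, which did not fall, held TTTGAA 30 bases before the start printed above, but windows at some of its other annotated starts held neither hexamer. The window of NEK2, which did not fall either, held neither hexamer. Windows of MYBL2, PTTG1 and KIF20A, which fell among the most, also held neither. These matches describe letters in a window and not binding.

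Of the mitotic kinases, 7 of 8 were lower under depletion and under both treatments together, and 6 were lower under bafilomycin A1 in rich medium. CDK1 (chromosome 10, 60778331-60794852), the kinase that drives entry into mitosis, was at 558, 383 and 673 CPM in rich vehicle and 346, 320 and 233 in rich bafilomycin A1. It was at 143, 194 and 176 CPM in depleted vehicle and 93.3, 96.7 and 96.8 in depleted bafilomycin A1. The libraries of the 4 groups did not overlap, and the depleted bafilomycin A1 libraries were the closest together. CDK1 fell by 0.84 on the log2 scale under bafilomycin A1 in rich medium (SE 0.21, adjusted p = 0.0189), by 1.66 under depletion (SE 0.21, adjusted p = 8.28e-05) and by 2.49 under both (SE 0.22, adjusted p = 1.11e-06). PLK1 was at 143 ± 5.38, 61.9 ± 8.38, 59.8 ± 2.16 and 35.0 ± 7.36 CPM (mean ± SD, n = 3) in rich vehicle, rich bafilomycin A1, depleted vehicle and depleted bafilomycin A1. AURKB, the catalytic kinase of the passenger complex, was not called under bafilomycin A1 in rich medium (-0.44 ± 0.21, adjusted p = 0.205) but fell under bafilomycin A1 in depleted medium (-0.88 ± 0.22, adjusted p = 0.0167). Its response was not shown to differ between media (interaction -0.44 ± 0.30, adjusted p = 0.423). AURKA, the centrosomal Aurora kinase, fell by 0.74 under bafilomycin A1 in rich medium and by 0.96 under depletion, and BUB1B, a checkpoint kinase-like protein, fell by 0.94 and 1.15.

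Among the cyclins and transcription factors, the 3 cyclins fell under either treatment, while the transcription factors MYBL2 and FOXM1 fell under depletion and were not called under bafilomycin A1 in rich medium. MYBL2 (chromosome 20, 43667114-43716482), the B-MYB activator of this gene wave, was at 337, 353 and 457 CPM in rich vehicle and 370, 410 and 217 in rich bafilomycin A1. In depleted vehicle it was at 107, 124 and 111 CPM, and in depleted bafilomycin A1 at 67.8, 73.1 and 55.0. Replicates 1 and 2 of rich bafilomycin A1 lay within the rich vehicle range and replicate 3 lay below it. The bafilomycin A1 difference in rich medium was -0.20 ± 0.21 (adjusted p = 0.59), and the difference in depleted medium was -0.80 ± 0.22 (adjusted p = 0.0253). FOXM1, the forkhead activator of late cell cycle genes, showed -0.26 ± 0.18 in rich medium (adjusted p = 0.383) and fell by 0.87 in depleted medium (SE 0.18, adjusted p = 0.00651). The interaction was not called for either gene (-0.60 ± 0.30 and -0.61 ± 0.25, adjusted p = 0.259 and 0.165). CCNB1, the cyclin B partner of CDK1, changed by -1.03 ± 0.15 under bafilomycin A1 in rich medium (adjusted p = 0.00102), by -1.24 ± 0.15 under depletion (adjusted p = 5.6e-05) and by -1.91 ± 0.15 under both (adjusted p = 5.17e-07).

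The 5 genes of anaphase control all fell under depletion and under both treatments. UBE2C, the ubiquitin-conjugating enzyme that works with the anaphase-promoting complex, was at 120, 118 and 170 CPM in rich vehicle, 86.8, 98.2 and 74.1 in rich bafilomycin A1, 71.2, 68.8 and 68.3 in depleted vehicle and 42.2, 33.0 and 33.5 in depleted bafilomycin A1. PTTG1, securin, the inhibitor of separase, was at 41.7, 44.6 and 71.1 CPM, then 34.0, 33.6 and 25.1, then 17.9, 19.4 and 20.4, then 9.35, 8.35 and 8.67 in the same groups. For both genes the 4 groups did not overlap. PTTG1 fell by 0.77 under bafilomycin A1 in rich medium (SE 0.20, adjusted p = 0.0234), by 1.45 under depletion (SE 0.20, adjusted p = 0.00013) and by 2.58 under both (SE 0.21, adjusted p = 5.93e-07). ESPL1, separase itself, fell by 0.99 under depletion (SE 0.24, adjusted p = 0.00539) and was not called under bafilomycin A1 in either medium (-0.36 ± 0.24 and -0.35 ± 0.24). MAD2L1, the checkpoint protein that holds CDC20, was at 148, 71.8 and 137 CPM in rich vehicle, and 71.9 in the highest rich bafilomycin A1 library, so these groups touched although the gene was called lower (-0.94 ± 0.23, adjusted p = 0.0188). Reads of PTTG1 and CDC20 pseudogenes were at most 2 per library, and the UBE2C pseudogene UBE2CP5 held 42 to 423 reads per library, against 1123 to 6486 for UBE2C.

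All 8 kinesins fell under depletion and 7 of 8 under bafilomycin A1 in rich medium. KIF20A was at 115, 94.7 and 87.1 CPM in rich vehicle and 35.9, 40.9 and 40.3 in rich bafilomycin A1. It was at 43.4, 40.9 and 37.9 CPM in depleted vehicle and 26.1, 20.4 and 13.1 in depleted bafilomycin A1. The single treatments overlapped, and the combined treatment lay below them. KIF20A fell by 1.34 under bafilomycin A1 in rich medium, by 1.28 under depletion and by 2.31 under both (SE 0.20, 0.20 and 0.21). KIF2C, a microtubule depolymerase at the centromere, was the kinesin not called under bafilomycin A1 in rich medium (-0.37 ± 0.15, adjusted p = 0.133). KIF11, the motor that pushes spindle poles apart, fell by 0.76 under bafilomycin A1 in rich medium (adjusted p = 0.0113) and showed -0.07 ± 0.17 in depleted medium (adjusted p = 0.861), with an interaction of 0.70 ± 0.24 that was not called (adjusted p = 0.1).

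The 5 centromere and kinetochore genes all fell under depletion and 4 fell under bafilomycin A1 in rich medium. CENPA, the centromeric histone H3 variant, was at 26.5, 17.1 and 29.1 CPM in rich vehicle, 16.7, 14.7 and 12.2 in rich bafilomycin A1, 11.2, 13.2 and 11.8 in depleted vehicle and 9.46, 6.29 and 7.99 in depleted bafilomycin A1. SPC25, a subunit of the NDC80 complex that grips microtubules, was at 24.7, 18.1 and 23.2 CPM, then 18.3, 18.4 and 9.38, then 6.38, 8.96 and 6.95, then 4.27, 3.81 and 3.46 in the same groups. Replicates 1 and 2 of rich bafilomycin A1 touched the rich vehicle range for SPC25, and replicate 3 was near the depleted vehicle libraries. SPC25 was not called under bafilomycin A1 in rich medium (-0.51 ± 0.25, adjusted p = 0.198) and fell by 1.56 under depletion and by 2.51 under both (SE 0.25 and 0.26). NDC80 and NUF2, subunits of the same complex, showed -0.91 ± 0.18 and -0.67 ± 0.21 under bafilomycin A1 in rich medium and -1.42 ± 0.19 and -1.06 ± 0.21 under both, all called.

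The 3 passenger complex subunits, which target Aurora B to centromeres and the midzone, were not called under bafilomycin A1 in either medium and fell under depletion in both. With the replicate number as a block INCENP was called lower under bafilomycin A1 in depleted medium. BIRC5, survivin, was at 76.0, 57.1 and 110 CPM in rich vehicle and 65.1, 61.1 and 45.1 in rich bafilomycin A1, groups that overlapped. It was at 35.2, 32.9 and 38.2 CPM in depleted vehicle and 29.2, 30.5 and 35.2 in depleted bafilomycin A1, which overlapped each other and lay below every rich-medium library. BIRC5 fell by 1.20 under depletion (SE 0.21, adjusted p = 0.000722). Its bafilomycin A1 differences were -0.51 ± 0.21 (adjusted p = 0.133) in rich and -0.16 ± 0.21 (adjusted p = 0.683) in depleted medium. INCENP, the scaffold, and CDCA8, borealin, showed -0.44 ± 0.18 and -0.50 ± 0.19 in rich medium, not called, and fell by 0.85 and 0.92 under depletion.

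All 7 spindle-associated genes fell under either single treatment. TPX2, the activator of Aurora A on the spindle, was at 381, 374 and 294 CPM in rich vehicle, 179, 201 and 136 in rich bafilomycin A1, 130, 146 and 114 in depleted vehicle and 123, 87.3 and 71.4 in depleted bafilomycin A1. NUSAP1, a microtubule bundling protein, was at 126, 84.2 and 92.6 CPM, then 59.4, 61.8 and 41.7, then 42.5, 43.2 and 33.3, then 27.6, 23.0 and 15.9 in the same groups. For both genes every treated library lay below the rich vehicle libraries, and the single treatments overlapped. NUSAP1 changed by -0.89, -1.35 and -2.18 under bafilomycin A1 in rich medium, depletion and both (SE 0.22, 0.22 and 0.23) and was the only 1 of the 7 called under bafilomycin A1 in depleted medium (-0.84 ± 0.22, adjusted p = 0.0231). With the replicate number as a block TPX2 was called there as well (-0.49, adjusted p = 0.0316).

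The cytokinesis genes fell under both single treatments, and TOP2A and MKI67 fell in each of the 5 comparisons between 2 groups described so far. ANLN was at 272, 241 and 204 CPM in rich vehicle, 125, 122 and 86.7 in rich bafilomycin A1, 63.4, 75.2 and 66.8 in depleted vehicle and 56.1, 51.3 and 45.4 in depleted bafilomycin A1, with no overlap between groups. TOP2A, the topoisomerase that untangles sister chromatids, was at 503, 368 and 320 CPM, then 217, 212 and 173, then 200, 212 and 175, then 129, 108 and 93.1 in the same groups. MKI67 was at 327, 406 and 206 CPM, then 147, 185 and 127, then 113, 137 and 89.6, then 73.5, 56.4 and 34.4. For TOP2A and MKI67 the single treatments overlapped each other and lay below rich vehicle. MKI67 had the widest spread of these genes, with a standard error of 0.28 on its bafilomycin A1 difference in rich medium (-1.03, adjusted p = 0.0278).

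NEK2, CDC25B and CDC25C departed from the pattern. NEK2 (chromosome 1, 211658256-211675621), a kinase that separates centrosomes, was at 29.3, 21.4 and 24.4 CPM in rich vehicle, 24.4, 23.5 and 22.7 in rich bafilomycin A1, 28.4, 22.8 and 23.9 in depleted vehicle and 27.5, 23.5 and 26.3 in depleted bafilomycin A1. All 4 groups overlapped. The difference between both treatments and rich vehicle was 0.04 on the log2 scale, with a 95% interval from -0.30 to 0.39, which leaves out falls of the size seen in the other 46 genes called lower. NEK2 pseudogenes held at most 4 reads in any library.

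CDC25C (chromosome 5, 138285265-138338355), a phosphatase that activates CDK1 at mitotic entry, was at 25.7, 24.4 and 31.0 CPM in rich vehicle and 28.9, 31.0 and 25.7 in rich bafilomycin A1. It was at 30.2, 29.0 and 31.9 CPM in depleted vehicle and 38.2, 37.8 and 30.9 in depleted bafilomycin A1. The third depleted bafilomycin A1 library lay inside the rich vehicle range, so the groups overlapped. The gene was called higher under both treatments (0.40 ± 0.15, adjusted p = 0.0493) and in no other comparison. That call was lost without rich vehicle replicate 1 or 2, rich bafilomycin A1 replicate 1 or 2, any depleted vehicle library, or depleted bafilomycin A1 replicate 1 or 2, with estimates of 0.33 to 0.40 in those fits.

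CDC25B, the related phosphatase that starts CDK1 activation at centrosomes, was at 51.6, 49.8 and 58.9 CPM in rich vehicle and 68.7, 60.7 and 46.7 in rich bafilomycin A1. It was at 47.4, 42.7 and 44.2 CPM in depleted vehicle and 33.9, 32.1 and 34.0 in depleted bafilomycin A1. The rich groups overlapped and the depleted bafilomycin A1 libraries lay below all others. CDC25B fell by 0.68 under both treatments (SE 0.15, adjusted p = 0.00223) and by 0.82 under depletion with bafilomycin A1 present (SE 0.15, adjusted p = 0.00155). It was not called under depletion alone (-0.26 ± 0.15, adjusted p = 0.219).

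**Figure D3:**
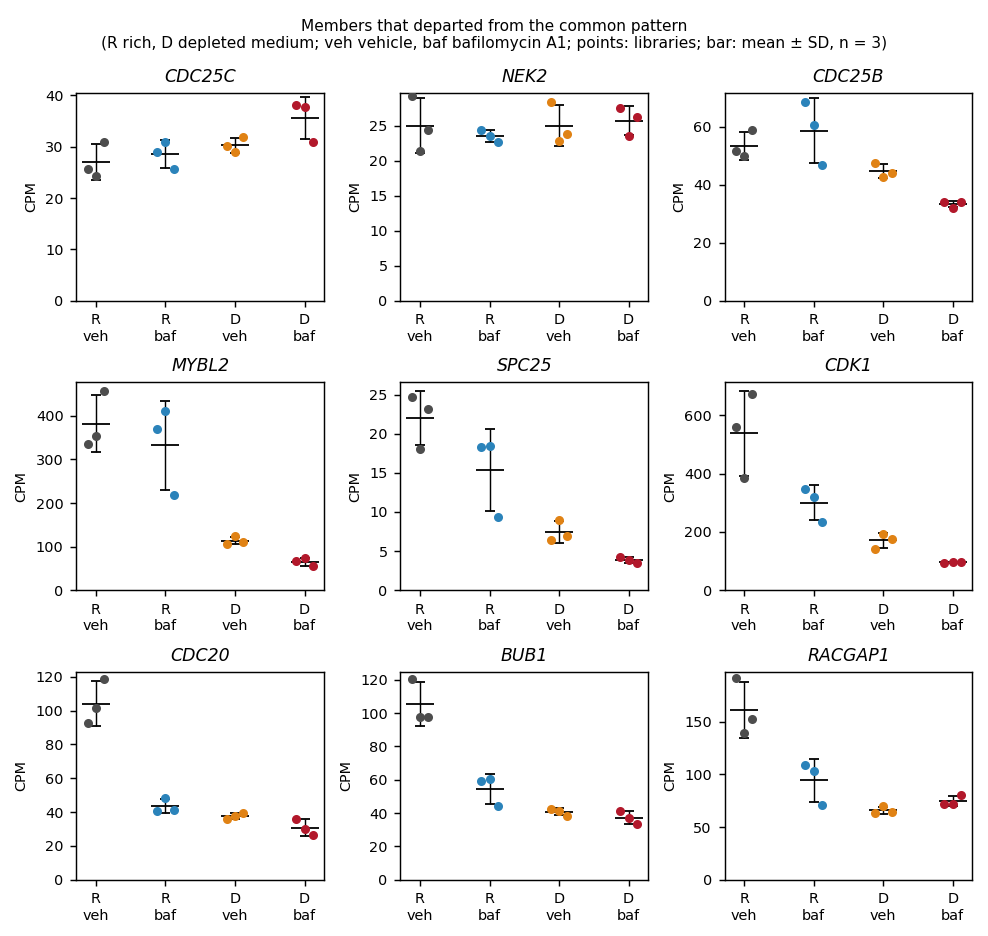
TMM-scaled CPM (y axes from 0) of 9 genes in the 4 groups (x axes); points are libraries and bars the mean ± SD of 3. CDC25C and NEK2 stay between 21.4 and 38.2 in every library, MYBL2 and SPC25 overlap between the rich-medium groups, and RACGAP1 is no lower with bafilomycin A1 in depleted medium.

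The difference between the bafilomycin A1 responses of the 2 media was tested as an interaction, with the response in rich medium subtracted from that in depleted medium. It was called for 3 of the 48 genes, all positive, against 2.35% of all genes called positive, and for none negative, against 3.83% (0 also by the DESeq2 test). The estimate was positive for 38 of the 48, against 8415 of all 18047 genes, with a median of 0.32 against -0.05 over all genes. At an unadjusted p under 0.05 were 13 members, of which CDC25B and FOXM1 were negative, against 4036 of all 18047 genes. CDC20 (chromosome 1, 43358981-43363203) was at 92.4, 101 and 118 CPM in rich vehicle and 40.7, 48.1 and 41.3 in rich bafilomycin A1, against 35.9, 37.9 and 39.6 in depleted vehicle and 36.0, 30.2 and 26.4 in depleted bafilomycin A1. The rich-medium groups were far apart, and the depleted-medium groups touched at their edges. CDC20 changed by -1.26 ± 0.15 in rich and -0.29 ± 0.15 in depleted medium, an interaction of 0.97 ± 0.22 (adjusted p = 0.0181).

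BUB1, a kinase of the spindle checkpoint, was at 121, 97.7 and 97.8 CPM in rich vehicle and 59.3, 60.4 and 44.2 in rich bafilomycin A1, against 42.5, 41.4 and 38.3 in depleted vehicle and 41.5, 37.2 and 33.2 in depleted bafilomycin A1. Its interaction was 0.82 ± 0.22 (adjusted p = 0.041). RACGAP1, the central spindle protein that positions the cleavage furrow, was at 191, 139 and 153 CPM in rich vehicle and 109, 103 and 71.1 in rich bafilomycin A1. In depleted medium it was at 63.7, 69.7 and 64.0 CPM with vehicle and 71.7, 71.9 and 80.7 with bafilomycin A1, so the bafilomycin A1 libraries lay above the vehicle libraries. RACGAP1 showed -0.77 ± 0.17 in rich medium, called, and 0.18 ± 0.17 in depleted medium, not called (adjusted p = 0.556), with an interaction of 0.95 ± 0.24 (adjusted p = 0.0316). MAD2L1 had the largest interaction of the 48, at 1.06 ± 0.33, and missed the threshold (adjusted p = 0.0692). The count of 3 became 0 without depleted vehicle replicate 1, 6 without rich vehicle replicate 2, and 1 without rich vehicle replicate 1, rich bafilomycin A1 replicate 3, depleted vehicle replicates 2 or 3, or any of the 3 depleted bafilomycin A1 libraries. Positive calls over all genes were 424 in the main fit, 126 without depleted vehicle replicate 1 and 766 without rich vehicle replicate 2. In the fits that left 1 member called they were 160 to 418.

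**Figure D4:**
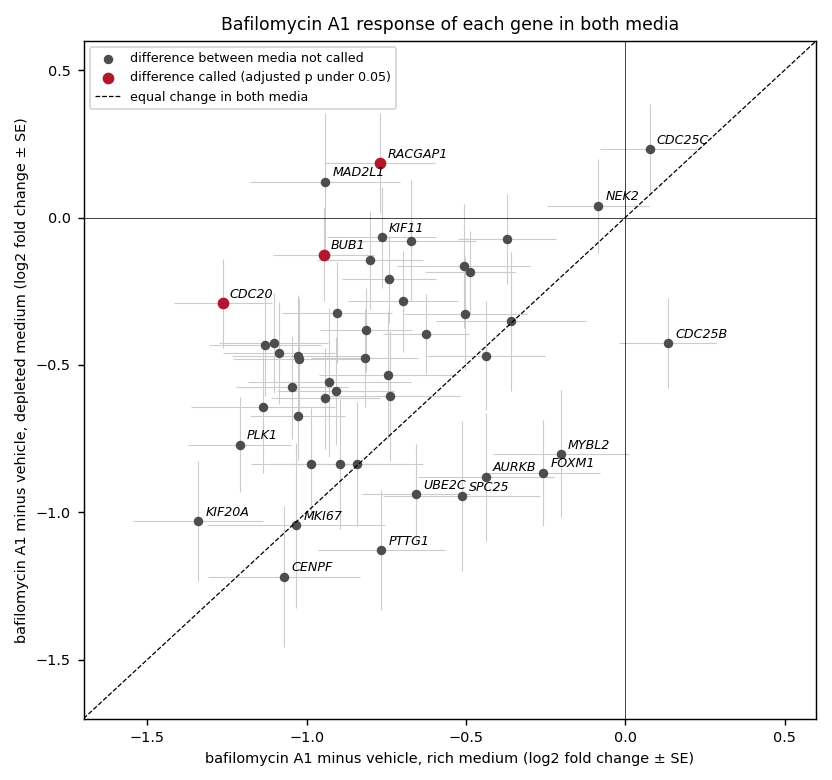
Log2 fold change of bafilomycin A1 against vehicle in rich medium (x axis) and depleted medium (y axis) for the 48 genes, ± SE; the dashed line marks equal change and the axes share no library. Of the genes, 38 lie above the line; CDC20, BUB1 and RACGAP1 (red) are those with a called difference, and MYBL2 and FOXM1 lie below the line.

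Depleted vehicle was also set directly against rich bafilomycin A1, 2 groups that share no library. CDK1, MYBL2, SPC25 and ANLN were lower in depleted vehicle and 44 of the 48 genes were not called, against 3.14% of all genes called lower and 0.875% called higher. The differences were -0.81 ± 0.21 for CDK1 (adjusted p = 0.0424), -1.55 ± 0.22 for MYBL2 (adjusted p = 0.0012), -1.05 ± 0.25 for SPC25 (adjusted p = 0.0313) and -0.70 ± 0.17 for ANLN (adjusted p = 0.033). The median over members was -0.31, against 0.03 over all genes, and 20 members had an unadjusted p under 0.05, against 3785 of all 18047 genes. Genes such as PLK1 (-0.05 ± 0.16), KIF20A (0.06 ± 0.20), TTK (-0.02 ± 0.14) and TOP2A (-0.03 ± 0.19) had estimates near 0, which at this spread does not show that the treatments acted alike. The count of 4 was 15 without rich bafilomycin A1 replicate 3, 8 or 9 without a rich vehicle library, 2 without depleted bafilomycin A1 replicate 2, and 1 without rich bafilomycin A1 replicate 1 or 2 or any depleted vehicle library. It was 19 without the shallow library and rich bafilomycin A1 replicate 3 together. Over all genes 566 of 18047 were called lower in the main fit. Lower calls rose to 1172 of 18683 without rich bafilomycin A1 replicate 3 and to 1856 of 18538 without both libraries. They were 135 to 251 in the fits with a count of 1.

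Levels of different genes were compared in TPM, which corrects for length. In rich vehicle CDK1 led the 48 genes at a mean of 410 TPM, followed by UBE2C at 307, MYBL2 at 203, CCNB1 at 158 and TPX2 at 148, and the lowest were KIF14 at 9.32 and CENPE at 8.56. In depleted bafilomycin A1 UBE2C (77.6 TPM) and CDK1 (75.0 TPM) had changed places, followed by AURKA at 47.2. CDC25C stood 42nd of 48 in rich vehicle at 19.2 TPM and 12th in depleted bafilomycin A1 at 25.1 TPM. NEK2 stood 44th at 17.4 TPM and 20th at 17.0 TPM. MKI67 went the other way, from 27th at 36.1 TPM to 43rd at 5.92 TPM. These are positions of group means, with no test between neighbours.

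Other genes of mitosis and the cell cycle were described from 8 lists that hold 150 genes and no member. Depletion lowered 23 of 33 other kinetochore and centromere genes, 7 of 8 condensin subunits, 10 of 14 regulators of mitotic entry, 14 of 24 centrosome and tubulin genes, 7 of 14 core subunits of the anaphase-promoting complex and 5 of 12 cohesin genes, and raised none of them, against 15.4% of all genes called lower and 15.5% called higher. Medians were -0.88, -1.17, -0.96, -0.65, -0.50 and -0.40 in that order. NCAPG, a condensin subunit of mitotic chromosomes, fell by 1.78 under depletion (SE 0.22, adjusted p = 5.7e-05), and CDC25A, the CDC25 phosphatase of the G1 to S transition, fell by 1.95 (SE 0.22, adjusted p = 4.1e-05). TUBA1B, an abundant alpha tubulin, fell by 1.94 under depletion and by 3.02 under both treatments (SE 0.23 and 0.24). Under bafilomycin A1 in rich medium condensin again had 7 of 8 lower, while the other kinetochore genes had 6 of 33 and centrosome and tubulin genes 3 of 24 lower and 1 higher, against 4.78% of all genes called lower and 6.15% called higher. Under bafilomycin A1 in depleted medium edgeR called no cohesin and no anaphase-promoting complex gene in either direction. Of all genes, 5.91% were called lower and 5.5% higher. At an unadjusted p under 0.05 were 2 of the 12 and 1 of the 14, against 4699 of all 18047 genes. Of the 33 other kinetochore and centromere genes, 2 were called lower and 2 higher under bafilomycin A1 in depleted medium, with a median of -0.11. ZW10, a checkpoint protein of the outer kinetochore, rose by 0.91 in that comparison (SE 0.15, adjusted p = 0.0012) and had an interaction of 1.18 ± 0.20 (adjusted p = 0.006).

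Genes of S phase, which come earlier in the cycle, fell under depletion in 24 of 26 cases (15.4% of all genes), with a median of -1.48, and under bafilomycin A1 in rich medium in 10 of 26 (4.78% of all genes), with a median of -0.57 and 1 gene higher (CDT1, 0.62 ± 0.18). In depleted vehicle 20 of the 26 were lower than in rich bafilomycin A1 (3.14% of all genes), with a median of -0.91, against 4 of the 48 mitosis genes with a median of -0.31; the difference between these lists was not tested. RRM2, a subunit of ribonucleotide reductase, was at 177, 149 and 161 CPM in rich vehicle, 141, 154 and 63.7 in rich bafilomycin A1, 29.6, 37.9 and 32.0 in depleted vehicle and 17.1, 13.3 and 12.4 in depleted bafilomycin A1. Replicate 3 of rich bafilomycin A1 again lay between its own group and the depleted libraries. MCM10, a replication initiation factor, fell by 2.55 under depletion and by 1.02 under bafilomycin A1 in rich medium (SE 0.26 and 0.25).

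Regulators of the DREAM and RB families and CDK inhibitors were called in both directions. Under both treatments 4 of 19 were lower and 6 higher, against 21.6% of all genes called lower and 21.6% called higher, with a median of 0.30. The share called lower was near that over all genes. CDKN1A, the CDK inhibitor p21, was at 4.91, 3.77 and 5.26 CPM in rich vehicle, 14.7, 17.6 and 10.5 in rich bafilomycin A1, 2.80, 3.96 and 4.22 in depleted vehicle and 5.17, 7.43 and 8.94 in depleted bafilomycin A1. It rose by 1.62 under bafilomycin A1 in rich medium (SE 0.27, adjusted p = 0.0025) and by 0.97 in depleted medium (SE 0.27, adjusted p = 0.031), and was not called under depletion (-0.34). LIN37, a subunit of the DREAM core, was at 0.595, 2.84 and 2.17 CPM in rich vehicle and 11.1, 9.35 and 10.5 in depleted bafilomycin A1 (2.39 ± 0.37, adjusted p = 0.00012), and its lowest value came from the shallow library. TFDP1, the dimer partner of E2F factors, fell by 1.67 under both treatments (SE 0.20, adjusted p = 1.4e-05).

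**Figure D5:**
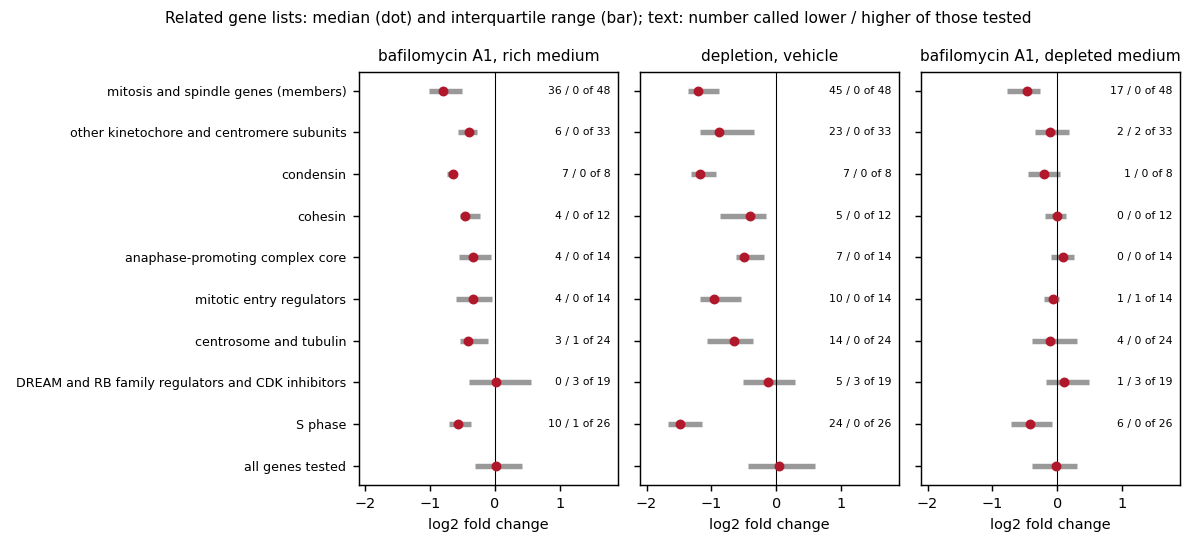
Median (dot) and interquartile range (bar) of the log2 fold change (x axes) of the mitosis and spindle genes, 8 related gene lists and all genes tested (y axis) in 3 comparisons; the text gives genes called lower / higher of those tested. The S phase list reaches -1.48 under depletion and -0.57 under bafilomycin A1 in rich medium, and the regulators of the DREAM and RB families stay near 0.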

How the data were processed

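RNA was depleted of ribosomal RNA before library preparation, per the labels' protocols. The submitters' processing notes name DRAGEN and GRCh38. Which annotation release and which strand setting were used for counting is not given in the sources used here. Overlapping antisense transcripts may therefore share reads with a gene. Per the file headers, each library's deposited table gives an estimated count of reads and TPM for 54553 genes. The authors also deposited a table of whole-number counts for 13518 genes, within 0.5 of the estimated counts, which holds all 48 genes.

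Estimated counts were rounded, filtered (filterByExpr, minimum count 10, minimum total 15; 18047 genes kept) and scaled by TMM factors. All 12 libraries were fitted with a mean per group in edgeR 4.0.16 (R 4.3.3, robust quasi-likelihood, 8 residual degrees of freedom), with Benjamini-Hochberg adjustment over all genes tested. There were 7 comparisons. Alternatives used DESeq2 1.42.0, other filters, scalings and subsets of libraries. The labels do not say what replicate numbers mark. Same-numbered libraries deviated together over all genes (r over 0.1 in every pair) between rich and depleted vehicle (0.16, 0.40 and 0.45) and between depleted vehicle and depleted bafilomycin A1 (0.16, 0.39 and 0.39), and for these a fit with the number as a block was also read. The script was tested on simulated data. No library was a copy of another: at most 1.63% of expressed genes had equal counts in 2 libraries. The genes, the lists and the tests were chosen with earlier results of these data known. Values of every library are given for the most abundant member of each functional group (by TPM in rich vehicle), for that with the largest change under both treatments, and for members called higher, called in the interaction or not called under depletion. From each related list, called genes with the largest changes were named. Promoters were taken from RefSeq (GRCh38.p14). AURKA, BIRC5, FOXM1, RACGAP1, TPX2, TTK and UBE2C had no entry.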

Additional observations from a re-analysis of the deposited data

Results flagged for a closer look

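The response to bafilomycin A1 was called different between rich and depleted medium for 3 of the 48 mitosis genes. The test was of the difference itself (the interaction term of the edgeR quasi-likelihood fit, n = 3 libraries in each of 4 groups). All 3 were positive, against 2.35% of all genes called positive and 3.83% called negative. The difference, depleted minus rich on the log2 scale, was 0.97 for CDC20 (SE 0.22, adjusted p = 0.0181, 0.000494 to 0.255 over the 20 alternatives). It was 0.95 for RACGAP1 (SE 0.24, adjusted p = 0.0316, 0.00566 to 0.324) and 0.82 for BUB1 (SE 0.22, adjusted p = 0.041, 0.00934 to 0.488). The call was the same in 18 of the 20 alternatives for CDC20, lost with a minimum fold of 1.5 and without depleted vehicle replicate 1. It was the same in 10 of 20 for RACGAP1 and 8 of 20 for BUB1. Levels of all 3 genes were lower in depleted vehicle than in rich vehicle, so the vehicle levels that the 2 responses are measured against differ.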

How the results depend on the processing

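No called result reversed. Medians over the members kept their sign, and 1 moved beyond the spread between libraries, that for bafilomycin A1 in rich medium (-0.63 without 2 libraries named below). Named members were on the same side of the threshold and of 0 in 2437 of the alternative values, lost the call in 125, gained it in 34 and changed sign without a call in 45. The cause of the following changes was not tested, except that a minimum fold of 1.5 asks for more by construction and smaller subsets hold fewer libraries. Members called lower under bafilomycin A1 in rich medium numbered 36, and 21 with only the 6 libraries compared, 3 with a minimum fold of 1.5, 17 without rich vehicle replicate 1 and rich bafilomycin A1 replicate 3 together (chosen after seeing the data), and 23 to 35 when each library was left out in turn. Under depletion the range was 43 to 45. Under bafilomycin A1 in depleted medium they numbered 17, 25 with a replicate block (the replicate number as a term) and 28 with 6 libraries. They numbered 0 with a minimum fold of 1.5 (0 members past it) and 6 to 20 leaving out each library. In the main edgeR test 31 had an unadjusted p under 0.05 there, against 4699 of all 18047 genes. Over all genes the lower calls there also moved, from 1066 of 18047 in the main fit. They were 1582 with the block, 2192 of 17117 with 6 libraries and 191 with a minimum fold. Under depletion with bafilomycin A1 the 36 became 11 with a minimum fold of 1.5 and 26 to 39 leaving out each library. Lower calls over all genes there were 2459 of 18047 in the main fit and 810 with a minimum fold. They were 1455 of 18602 to 2945 of 18636 leaving out each library. Under both treatments 46 were lower without any 1 library, while CDC25C, the 1 higher call, became 0 with DESeq2 size factors, with no low-count filter, with 6 libraries, with a minimum fold and without those 2 libraries, and 0 to 1 leaving out each library. For depleted vehicle against rich bafilomycin A1 the 4 became 11 with the DESeq2 test, with no filter, with 6 libraries and with the replicate block, 1 with a minimum fold, 19 without those 2 libraries and 1 to 15 leaving out each library. The 3 interaction calls became 5 with the DESeq2 test and with the replicate block, 0 with a minimum fold, 1 without those 2 libraries and 0 to 6 leaving out each library. Counts over all genes moved in the other comparisons too. Lower calls under bafilomycin A1 in rich medium were 862 of 18047, 203 of 16749 with 6 libraries and 29 with a minimum fold. Against rich bafilomycin A1, depleted vehicle had 566 lower calls, 1144 of 17209 with 6 libraries and 986 with the block. Positive interaction calls were 424, 892 with the DESeq2 test, 742 with the block and 27 with a minimum fold. Called under every alternative run were 3 members for bafilomycin A1 in rich medium (PLK1, CDC20 and KIF20A), 31 for depletion, 0 for bafilomycin A1 in depleted medium, 11 for depletion under bafilomycin A1, 43 for both and 1 (MYBL2) for depleted vehicle against rich bafilomycin A1.

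In the other comparisons not every same-numbered pair deviated together: over all groups r ran from -0.13 to 0.45 and passed 0.1 in 10 of 18 pairs, and 11 of 12 libraries were nearest to their own number. The replicate block gave 45 lower members under depletion, as without it. With 3 libraries a group and standard errors near 0.2, a difference that was not called is not shown to be absent.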
